A study of Mus musculus with 48 samples.

Results

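The 10 genes of the lung lining described here were measured in RNA of airspace macrophages recovered by bronchoalveolar lavage (BAL) from mice: the surfactant protein genes Sftpa1, Sftpb, Sftpc and Sftpd, the alveolar epithelial genes Ager and Cldn18, the lysozyme gene Lyz1, and the epithelial genes Epcam, Krt8 and Krt18. They were taken by symbol, and 10 of 10 were found among 24411 genes of the deposited count table. The mice were male, 12 with Siglec-F deleted (knockout, KO) and 12 wild type (WT), with 3 mice in each of 8 groups. Naive mice of each genotype had received saline (day 0). The other mice had received intratracheal bleomycin, 2.5 units/kg, and were lavaged at day 7, 14 or 21. The strain, the age, the cells in which the deletion acts and the way macrophages were separated from other lavage cells are not stated in the sources read.

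Pulmonary surfactant is a lipid and protein film made by alveolar type 2 (AT2) cells, cuboidal cells of the alveolus that also renew the epithelium. Alveolar macrophages normally do not transcribe surfactant protein genes, but they take up and degrade spent surfactant. Alveolar type 1 (AT1) cells are thin cells that cover most of the gas exchange surface. Bleomycin injures this epithelium and leads to fibrosis.

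Library totals ran from 24877049 to 47457085 counts. The 8 alveolar macrophage marker genes checked include the deleted gene, Siglecf. Each averaged at least 5 CPM over naive mice of both genotypes, but Siglecf averaged 0.341 CPM in naive KO mice. The 8 summed to 7100 to 22500 CPM in bleomycin mice and 19700 to 26600 CPM in naive mice. Averaged over days and genotypes, 5 of 8 were called lower after bleomycin, where 22.9% of all tested genes were. The calls ran from 5 lower and 0 higher in WT mice at day 7 to 0 lower and 0 higher in KO mice at day 21 (15.3% and 6.89% of all tested genes were lower). CPM are counts per 1000000 of a library total adjusted with TMM, edgeR's scaling between libraries. The deleted gene, Siglecf, had 0 to 25 counts in each KO library, against 2631 to 20368 counts in each WT library. In the summed level of the 8 genes that were low in naive mice, WT mouse 3 at day 7, KO mouse 1 at day 14 and KO mouse 3 at day 21 stood apart from the other mice of their groups. Calls that were lost without one of them are given with the value found without it. Genes are called here at an adjusted p under 0.05 in edgeR's quasi-likelihood test, over all 12634 genes tested. A value of 0 counts, found in 21 of 240 values of the 10 genes, allows a level of up to 0.0594 to 0.123 CPM by library, a limit that covers counting error only.

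The 10 genes fell into 3 patterns. The 4 surfactant genes, Ager, Cldn18, Krt8 and Krt18 were under 0.6 CPM in every naive mouse and rose after bleomycin. Lyz1 was present in every mouse and rose. Epcam, at 49.7 to 141 CPM in naive mice, fell. In bulk RNA, fewer cells of a type and less RNA per cell cannot be told apart. Averaged over the 3 days and both genotypes, bleomycin against naive, 9 genes were higher and 1 was lower, where 25.9% of all tested genes were higher and 22.9% lower. Without WT mouse 3 at day 7, Ager was not called in this average (2.24 in place of 2.89, edgeR adjusted p = 0.0846) and Sftpd had no usable estimate, as the remaining WT mice of that day were at 0 counts. All 10 passed the expression filter, but Sftpa1, Sftpb, Sftpd, Ager, Cldn18 and Krt18 reached its level of 0.286 CPM in 0 of 6 naive mice, Krt8 in 1 and Sftpc in 2. These 8 could pass only through the bleomycin groups, so their count is a description and not evidence about the set.

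**Figure D1:**
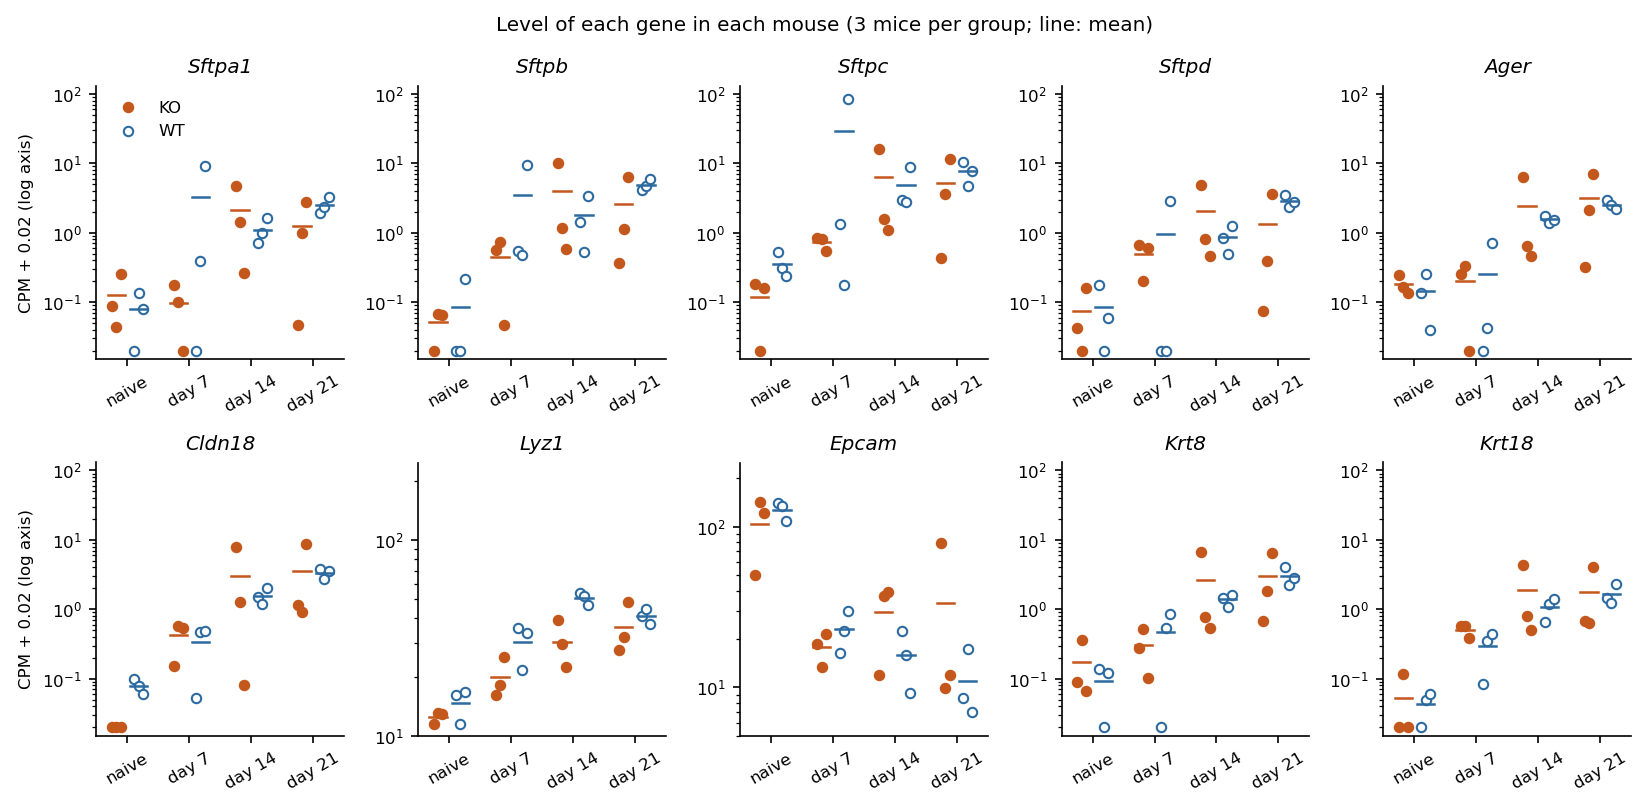
Level of each of the 10 genes in each mouse, as CPM plus 0.02 on a log axis, at each time, with KO (filled) left of WT (open) and a line at the mean of 3 mice. The 8 low genes lie under 0.6 CPM in every naive mouse, Lyz1 lies between 11.4 and 53.9 CPM, and Epcam lies below its naive mice everywhere but in KO mouse 1 at day 21.

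Sftpc encodes surfactant protein C, a small hydrophobic protein made almost only by AT2 cells. In KO mice it stood at 0.161, 0 and 0.139 CPM when naive, 0.833, 0.791 and 0.524 CPM at day 7, 16.3, 1.57 and 1.08 CPM at day 14, and 0.406, 3.54 and 11.6 CPM at day 21. In WT mice it stood at 0.505, 0.294 and 0.218 CPM when naive, 1.32, 0.155 and 85.3 CPM at day 7, 2.9, 2.8 and 8.89 CPM at day 14, and 10.6, 4.75 and 7.63 CPM at day 21. Every KO mouse after bleomycin was above every naive KO mouse, and in WT mice this held at days 14 and 21, while WT mouse 2 at day 7 lay below all 3 naive mice. The log2 fold change over naive was 5.9 (SE 1.86, edgeR adjusted p = 0.0334) in KO mice at day 14 and 5.64 (SE 1.85, adjusted p = 0.0339) at day 21. The WT values were 6.48 (SE 1.7, adjusted p = 0.00541) at day 7, 3.92 (SE 1.63, adjusted p = 0.0715) at day 14 and 4.57 (SE 1.64, adjusted p = 0.0377) at day 21. The day 7 value rests on WT mouse 3, which held 3086 Sftpc counts. Without that mouse the day 7 call was lost, at 1.12 (adjusted p = 0.55), and the KO against WT difference of -5.33 became 0.02. The KO day 14 call was lost without KO mouse 1 of that day, at 3.66 (adjusted p = 0.278), and the KO day 21 call without mouse 3, at 4.23 (adjusted p = 0.169), or mouse 2. Both were lost without any one of the naive KO mice. The WT day 21 call was lost without mouse 1 or 3 of that day or any one of the naive WT mice.

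Sftpb encodes surfactant protein B, the hydrophobic protein that spreads the lipid film and without which lungs fail at birth. In KO mice it had 0, 0.0483 and 0.0462 CPM when naive, 0.546, 0.712 and 0.0276 CPM at day 7, 10.1, 1.16 and 0.568 CPM at day 14, and 0.352, 1.1 and 6.31 CPM at day 21. WT mice had 0, 0 and 0.198 CPM of it when naive, 0.517, 0.465 and 9.48 CPM at day 7, 1.39, 0.514 and 3.38 CPM at day 14, and 4.1, 4.71 and 5.87 CPM at day 21. WT mice at day 21 were close to each other, while KO mice at days 14 and 21 spread over more than 10-fold. The log2 fold change over naive was 6.81 (SE 1.75, adjusted p = 0.00976) in KO mice at day 14 and 6.23 (SE 1.74, adjusted p = 0.0138) at day 21. In WT mice Sftpb rose at all 3 days, by 5.34 (SE 1.56), 4.36 (SE 1.55) and 5.82 (SE 1.58) on the log2 scale. The WT day 7 call was lost without WT mouse 3, at 2.52 (adjusted p = 0.214), and the day 14 call without WT mouse 3 of that day or naive mouse 1 or 2, while the day 21 call stayed without any one mouse. The KO day 14 call was lost without KO mouse 1, at 4.64 (adjusted p = 0.0961), and the day 21 call without KO mouse 3, at 4.38 (adjusted p = 0.109), or naive mouse 1 or 3.

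Sftpa1 and Sftpd encode the collectins SP-A and SP-D, secreted lectins that bind microbes and surfactant. Sftpa1 reached 4.65, 1.4 and 0.239 CPM in KO mice at day 14, against 0.683, 0.964 and 1.63 CPM in WT mice, and 0.0271, 0.977 and 2.72 CPM in KO mice at day 21, against 1.89, 2.32 and 3.21 CPM in WT mice. Naive mice held at most 0.231 CPM, and KO mice at day 7 at most 0.156 CPM. Sftpa1 was called in WT mice at days 7 and 21, with log2 fold changes of 5.61 (SE 1.69) and 5.23 (SE 1.68), and in no KO comparison, where day 14 gave 4.21 (SE 1.54, adjusted p = 0.0661). At day 7 the 3 WT mice had 0, 0.377 and 9.26 CPM, so that value also came from mouse 3, and the call was lost without it, at 1.63 (adjusted p = 0.455), or without naive mouse 3. The WT day 21 call of Sftpa1 was lost without naive mouse 1 or 3. The KO value was called without mouse 3 at day 14 (adjusted p = 0.0389) and without mouse 1 at day 21 (adjusted p = 0.0419). Sftpd had 4.85, 0.784 and 0.449 CPM in KO mice at day 14, against 0.82, 0.482 and 1.25 CPM in WT mice, and 0.0541, 0.366 and 3.57 CPM in KO mice at day 21, against 3.44, 2.32 and 2.8 CPM in WT mice. It was called in KO mice at day 14, at 5.12 (SE 1.72, adjusted p = 0.0457), and in WT mice at day 21, at 5.55 (SE 1.77, adjusted p = 0.0208). The KO call of Sftpd was lost without mouse 1 of day 14, at 3.42 (adjusted p = 0.255), mouse 2 of that day or any one naive mouse, the WT call without naive mouse 2 or 3, and the KO day 21 value was called without mouse 1 (adjusted p = 0.0246).

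On the genome, Sftpa1 (mm10 chromosome 14, 41131782 to 41136452) and Sftpd (chromosome 14, 41172214 to 41185149) lie near each other on opposite strands, Sftpc lies on the same chromosome (70520949 to 70524081), and Sftpb lies on chromosome 6 (72304610 to 72314371). Surfactant genes are known targets of NKX2-1, a transcription factor of lung epithelium. The 250 bases before the start of transcription are shown for Sftpa1 and Sftpb, which were correlated across mice, from RefSeq on GRCm38.p6, both on the plus strand. Capitals mark CAAGTG or its reverse complement CACTTG, a core of the NKX2-1 motif that reads on either strand without overlap. Sftpa1 holds it at 202 and 14 bases before the start, and the Sftpb window holds none of these letters.
Sftpa1 at chr14:41131538-41131787: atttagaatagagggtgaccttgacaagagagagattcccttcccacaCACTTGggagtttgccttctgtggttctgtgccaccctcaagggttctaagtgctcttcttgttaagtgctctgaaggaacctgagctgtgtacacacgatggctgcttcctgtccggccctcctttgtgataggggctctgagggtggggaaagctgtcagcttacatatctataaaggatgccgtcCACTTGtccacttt
Sftpb at chr6:72304360-72304609: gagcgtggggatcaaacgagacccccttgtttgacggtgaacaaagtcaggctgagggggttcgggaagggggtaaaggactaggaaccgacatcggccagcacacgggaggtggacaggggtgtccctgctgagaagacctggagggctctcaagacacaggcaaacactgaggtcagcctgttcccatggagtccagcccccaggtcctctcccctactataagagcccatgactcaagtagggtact
The motif was in 3 of the 8 genes with a promoter in the table, namely Sftpa1, Lyz1 and Cldn18, and not in every Cldn18 window. Sftpc and Sftpd had no promoter entry. Among 32851 windows of the same length 11.6% held the motif, a share of windows and not of genes, so the match is only a description. Nkx2-1, named for this motif, averaged 0.251 CPM in mice after bleomycin and 0.0199 CPM in naive mice (log2 fold change 4.25, SE 1.33, adjusted p = 0.0129).

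Ager encodes the receptor RAGE, which is concentrated on AT1 cells, and Cldn18 encodes a claudin of alveolar tight junctions. Ager had 6.25, 0.614 and 0.449 CPM in KO mice at day 14, against 1.72, 1.38 and 1.52 CPM in WT mice. At day 21 it had 0.298, 2.08 and 6.93 CPM in KO mice, against 2.94, 2.49 and 2.14 CPM in WT mice. WT mice lay close together on both days, and KO mice lay on either side of them. At day 7 Ager was not called, with 0.234, 0.317 and 0 CPM in KO mice and 0, 0.0222 and 0.691 CPM in WT mice, while naive mice ran up to 0.235 CPM. The log2 fold change over naive was 3.86 (SE 1.27, adjusted p = 0.041) in KO mice at day 14 and 4.22 (SE 1.28, adjusted p = 0.0219) at day 21, and 3.68 (SE 1.33, adjusted p = 0.0386) and 4.39 (SE 1.34, adjusted p = 0.0161) in WT mice at days 14 and 21. The WT day 14 call was lost without any one of the 6 mice, and the day 21 call without naive mouse 3. The KO calls were lost without any one naive mouse, without mouse 1 at day 14, at 1.68 (adjusted p = 0.462), and without mouse 3 at day 21, at 2.83 (adjusted p = 0.16).

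Cldn18 had 0 counts in all 3 naive KO mice and 2 counts in each naive WT mouse. In KO mice it reached 0.13, 0.554 and 0.524 CPM at day 7, 7.73, 1.26 and 0.0598 CPM at day 14, and 1.14, 0.886 and 8.69 CPM at day 21. In WT mice it reached 0.0323, 0.443 and 0.47 CPM at day 7, 1.5, 1.16 and 2.01 CPM at day 14, and 3.77, 2.7 and 3.52 CPM at day 21. Every KO mouse after bleomycin was above the naive KO mice, and WT mice did not overlap naive WT mice at days 14 and 21. Set against 3 counts over the naive KO group, Cldn18 was at least 17.1-fold higher in KO mice at day 7, at least 111-fold higher at day 14 and at least 161-fold higher at day 21, with edgeR adjusted p of 0.0189, 0.00163 and 0.00101. Mouse 1 at day 14 held 188 of the 227 Cldn18 counts of its group, and without it the fold was at least 26.6 (adjusted p = 0.0109). Without mouse 3 at day 21, which held 336 of 407 counts, it was at least 43.5 (adjusted p = 0.00479). In WT mice its log2 fold change was 4.72 (SE 1.36, adjusted p = 0.0128) at day 14 and 5.82 (SE 1.38, adjusted p = 0.00343) at day 21. The KO calls at days 14 and 21 and the WT call at day 21 stayed without any one mouse, while the KO day 7 call was lost without any one naive mouse and the WT day 14 call without naive mouse 3.

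Krt8 and Krt18 encode the paired keratins of simple epithelium, and Krt8 marks the transitional state between AT2 and AT1 cells in injured mouse lungs. Their genes lie near each other on chromosome 15, Krt8 at 101996698 to 102004482 on the minus strand and Krt18 at 102028180 to 102032027 on the plus strand. Krt18 was the one gene of the 8 called at day 7 in both genotypes. It had 0.546, 0.554 and 0.359 CPM in KO mice at day 7 and 0.0646, 0.333 and 0.415 CPM in WT mice at day 7, and naive mice held at most 0.0966 CPM. The log2 fold change over naive was 3.81 (SE 1.14, adjusted p = 0.0136) in KO mice and 3.22 (SE 1.23, adjusted p = 0.046) in WT mice at day 7. The KO call was lost without naive mouse 1 or 3, and the WT call without mouse 3 of day 7, at 2.82 (adjusted p = 0.12), mouse 2 of that day or any one naive mouse. From 3 counts in the naive WT group, its WT ratio by summed counts was 10.5 at day 7 (95% exact interval 3.28 to 53.5), 39.2 at day 14 (13.1 to 193) and 61 at day 21 (20.5 to 299), intervals that cover counting error only.

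Krt18 later reached 4.32, 0.784 and 0.479 CPM in KO mice at day 14, against 0.629, 1.16 and 1.4 CPM in WT mice, and 0.65, 0.611 and 3.98 CPM in KO mice at day 21, against 1.46, 1.21 and 2.31 CPM in WT mice. Krt8 had 6.66, 0.75 and 0.508 CPM in KO mice at day 14, against 1.45, 1.06 and 1.6 CPM in WT mice, and 0.65, 1.83 and 6.52 CPM in KO mice at day 21, against 4.03, 2.25 and 2.83 CPM in WT mice. Both keratins were called at days 14 and 21 in both genotypes, with log2 fold changes of 4.1 to 5.72 in KO mice and 4.19 to 5.8 in WT mice. The Krt18 calls at these days and the Krt8 call in WT mice at day 21 stayed without any one mouse. The Krt18 values in KO mice were 5.72 at day 14 and 5.65 at day 21, and became 4.18 without mouse 1 at day 14 and 4.18 without mouse 3 at day 21. Krt8 was not called without naive mouse 2 in WT mice at day 14, and in KO mice without naive mouse 1 or 3, mouse 1 at day 14 (2.04, adjusted p = 0.281) or mouse 3 at day 21 (3.02, adjusted p = 0.0925). Krt8 at day 7 was not called, at 0.9 (SE 1.18) in KO mice and 2.6 (SE 1.29) in WT mice. As for Ager, KO mouse 1 was highest at day 14 and KO mouse 3 at day 21.

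**Figure D2:**
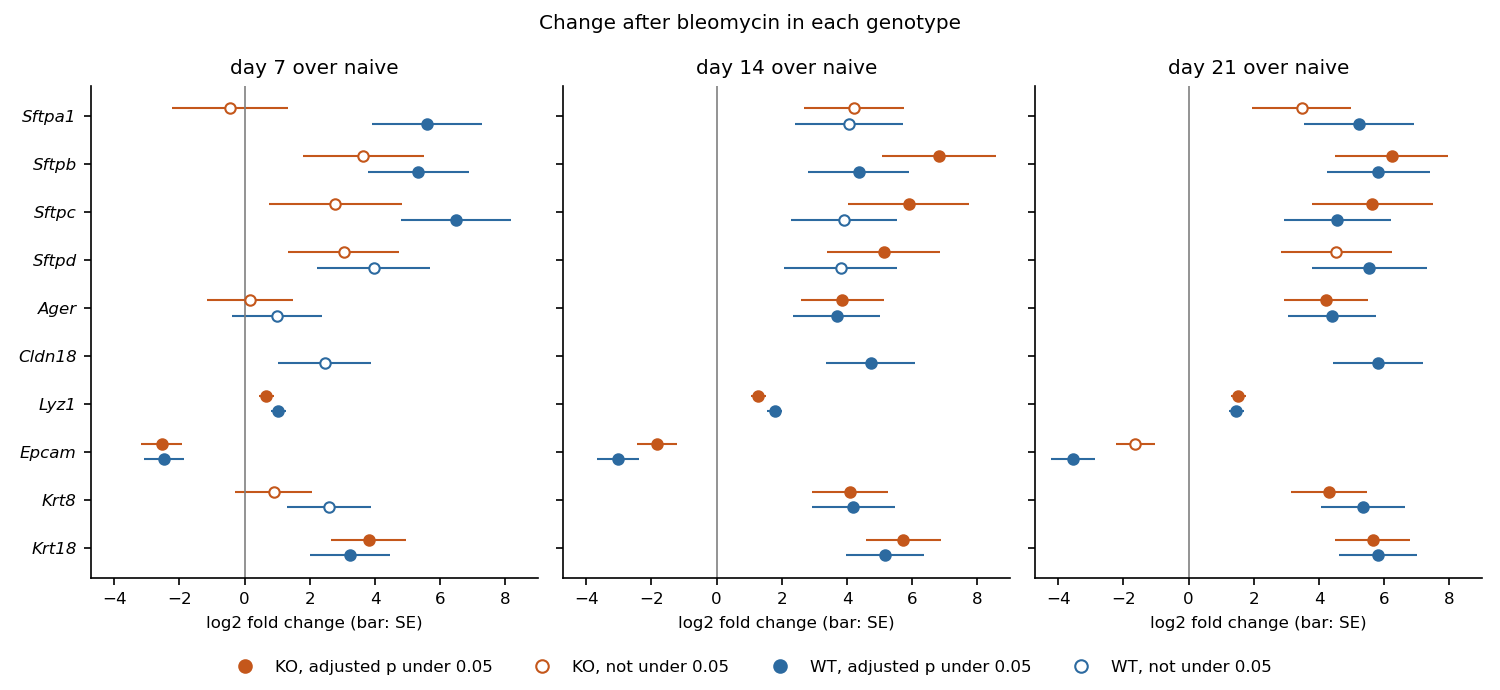
Log2 fold change over naive mice of the same genotype (x axis) with its SE for each gene at days 7, 14 and 21, KO above WT, filled where the edgeR adjusted p is under 0.05. Cldn18 is not drawn for KO mice, whose naive libraries held 0 counts, and Epcam is the one gene with negative values in every group.

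Counted by day, KO mice had 3 genes higher and 1 lower at day 7 (19.7% of all tested genes were higher and 14.4% lower), 8 higher and 1 lower at day 14 (12.0% and 4.84%), and 7 higher and 0 lower at day 21 (15.0% and 6.89%). WT mice had 5 genes higher and 1 lower at day 7 (20.2% and 15.3%), 6 higher and 1 lower at day 14 (18.7% and 13.4%), and 9 higher and 1 lower at day 21 (18.8% and 13.7%). The median log2 fold change over the 10 genes was 1.84, 4.67 and 4.41 in KO mice and 2.91, 3.99 and 5.28 in WT mice at days 7, 14 and 21, where the median over all genes was between 0 and 0.02. The genes with all 3 bleomycin mice above all 3 naive mice numbered 5, 9 and 7 in KO mice (29.1%, 21.6% and 20.8% of all tested genes) and 3, 9 and 9 in WT mice (23.1%, 24.4% and 26.3%) at days 7, 14 and 21. The 3 days of a genotype share its naive mice, and the same limit on the low genes holds. Single mice moved these counts. The KO day 14 count of 9 became 3 without mouse 1 of that day and 5, 5 and 4 without naive mouse 1, 2 or 3. The KO day 21 count of 7 became 3 without mouse 3 of that day, 4 without naive mouse 1 and 3 without naive mouse 3, and the KO day 7 count of 4 became 1, 2 and 1 without naive mouse 1, 2 or 3. The WT count of 6 at day 7 became 2 without mouse 3 of that day, that of 7 at day 14 became 4 without naive mouse 2, and that of 10 at day 21 became 6 without naive mouse 3. Of 53 called values, 26 stayed called without any one mouse.

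The 8 low genes summed to 0.552 to 0.715 CPM in naive KO mice and 0.713 to 0.971 CPM in naive WT mice, from 24 to 36 counts a library. In KO mice the sum was 2.1 to 3.69 CPM at day 7, 60.8, 8.32 and 3.83 CPM at day 14, and 3.57, 11.4 and 50.3 CPM at day 21. WT sums were 1.94, 2.31 and 109 CPM at day 7, 11.1, 9.51 and 21.7 CPM at day 14, and 32.2, 22.8 and 30.3 CPM at day 21. WT mouse 3 at day 7, KO mouse 1 at day 14 and KO mouse 3 at day 21 had the highest sums of their groups, each more than 4 times the next.

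Per kilobase of transcript, surfactant genes made up most of the 8-gene level in all bleomycin mice with at least 100 counts but KO mouse 1 at day 21. Their share was 69.7 to 71.9% in KO mice and 63.6 to 81.6% in WT mice at day 14, and 65.4 and 63.1% in KO mice 2 and 3 and 72.5 to 76% in WT mice at day 21. KO mouse 1 at day 21 had 38.6%, with 37.8% from keratins, on 132 counts. KO mouse 1 at day 14 had the highest sum of its group, and 71.9% of it was surfactant, 14.1% Ager and Cldn18 and 14.1% keratins. In WT mouse 3 at day 7, 98.9% of its sum was surfactant and 89.1% was Sftpc alone, with 0.589% keratins.

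**Figure D3:**
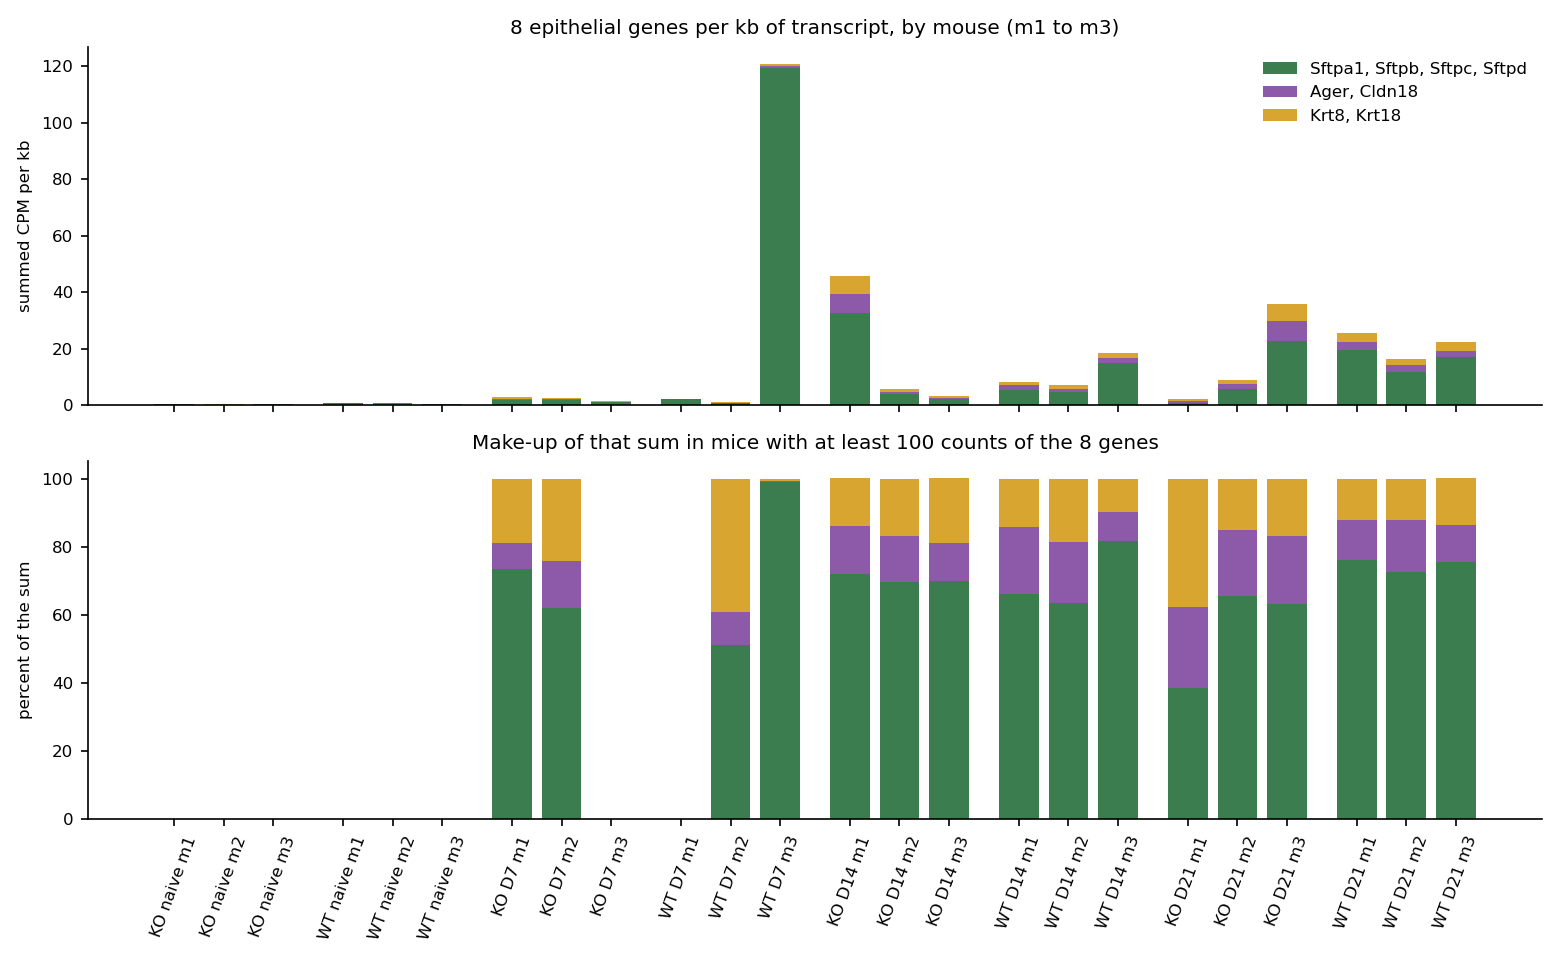
Summed level of the 8 low genes in each mouse in CPM per kilobase of transcript (top), and the percentage from surfactant genes, Ager with Cldn18, and keratins (bottom, mice with at least 100 counts), KO left of WT at each time. WT mouse 3 at day 7 has the highest sum and is 98.9% surfactant.

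Of 51 other epithelial genes listed, 8 were highest in WT mouse 3 at day 7, 5 in KO mouse 1 at day 14 and 9 in KO mouse 3 at day 21. These mice were picked for their high sums of the low genes. The share of all genes highest in each was not computed, so the counts are a description. Some of the genes had few counts over all mice, such as Muc5b (24), Col4a3 (54) and Esrp1 (66). Among the genes highest in WT mouse 3 at day 7 was Scgb1a1, the secretoglobin of airway club cells, at 21.9 CPM. The next highest of the other 23 mice was at 2.44 CPM. Cxcl15, a chemokine of lung epithelium, was at 5.42 CPM, and the next highest was at 1.45 CPM. Its Cldn18 (0.47 CPM) and Krt18 (0.415 CPM) were within the range of the other day 7 mice, and its Ager (0.691 CPM) and Krt8 (0.829 CPM) were above them. In KO mouse 1 at day 14 and KO mouse 3 at day 21 the AT1 water channel gene Aqp5 was higher than in any other mouse, at 3.99 and 4.47 CPM, and Scgb1a1 was at 1.69 and 0.258 CPM.

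In order of level per kilobase of 1 annotated transcript a gene, WT mice at day 21 had Lyz1 at 32.4 ± 2.85 CPM per kb (SD, n = 3), Sftpc at 9.65 ± 3.66, Epcam at 5.35 ± 2.7, Sftpb at 3.29 ± 0.604, Sftpd at 2.24 ± 0.44, Ager at 1.84 ± 0.293, Krt8 at 1.55 ± 0.464, Krt18 at 1.16 ± 0.403, Sftpa1 at 0.866 ± 0.237 and Cldn18 at 0.799 ± 0.134 CPM per kb. From Sftpc downwards each neighbour in this order lay within the summed SDs of the next, except the step from Sftpb to Sftpd. The same scale gave, in naive mice, Epcam at 56.7 ± 16.9 and Lyz1 at 10.8 ± 1.81 CPM per kb (n = 6), and at most 0.277 CPM per kb for the other 8 genes.

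Lyz1 encodes lysozyme P, the lysozyme of intestinal Paneth cells in mice, and Lyz2 encodes lysozyme M, a main product of macrophages. In KO mice Lyz1 had 11.5, 13.1 and 12.9 CPM when naive, 16.2, 18.2 and 25.4 CPM at day 7, 39.1, 29.4 and 22.4 CPM at day 14, and 27.6, 32 and 48.1 CPM at day 21. WT mice had 16.2, 11.4 and 16.7 CPM when naive, 35.8, 21.6 and 33.7 CPM at day 7, 53.9, 51.6 and 46.9 CPM at day 14, and 40.8, 44.5 and 37.3 CPM at day 21. No bleomycin mouse overlapped the naive mice of its genotype. The log2 fold change over naive was 0.67 (SE 0.23), 1.28 (SE 0.23) and 1.52 (SE 0.23) at days 7, 14 and 21 in KO mice and 1.04 (SE 0.23), 1.78 (SE 0.23) and 1.47 (SE 0.23) in WT mice, all called, with edgeR adjusted p between 8.32e-06 and 0.0281. Only the KO day 7 call was lost without 1 mouse, namely without mouse 3 of that day or any one naive mouse.

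Lyz1 values are uncertain because Lyz2 is nearly identical in its coding bases and had 550487 to 1563178 counts a library. Lyz2 lies at 117277331 to 117282321 on the same strand of chromosome 10 as Lyz1 (117287797 to 117292868). Of 444 coding bases 422 are the same (95%), and the longest run without a difference is 118 bases, against reads of 150 bases. The transcripts are 1263 bases long for Lyz1 and 1316 for Lyz2, and their bases outside the coding part were not compared. A stretch that holds 13 of the 22 differences, coding bases 43 to 132 on the reference transcripts, is shown with them in capitals.
Lyz1 coding bases 43 to 132: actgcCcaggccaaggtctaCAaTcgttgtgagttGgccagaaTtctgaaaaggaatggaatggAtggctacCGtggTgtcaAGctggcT
Lyz2 coding bases 43 to 132: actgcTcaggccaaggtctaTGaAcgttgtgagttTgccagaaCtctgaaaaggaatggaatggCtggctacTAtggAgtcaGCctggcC
The fractional counts of both genes summed to whole numbers in 24 of 24 mice, within 0.01. Lyz1 took 0.0864 to 0.184% of the sum in bleomycin mice, against 0.0656 to 0.0865% in naive mice. How far reads of Lyz2 enter Lyz1 was not tested. Lyz2 was called higher at days 14 and 21, with log2 fold changes of 0.86 and 0.88 (SE 0.17 each) in KO mice and 0.94 and 1 (SE 0.17 each) in WT mice. At day 7 Lyz2 was not called, at -0.03 in KO mice and 0.14 in WT mice, while Lyz1 was.

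Epcam encodes an adhesion molecule of epithelia, and its RNA was present in the libraries of naive mice of both genotypes. In KO mice it had 49.7, 141 and 121 CPM when naive, 18.6, 13.4 and 21.6 CPM at day 7, 11.8, 36.8 and 39.3 CPM at day 14, and 79, 9.93 and 12 CPM at day 21. In WT mice it had 139, 134 and 109 CPM when naive, 16.4, 22.4 and 30 CPM at day 7, 22.3, 15.8 and 9.28 CPM at day 14, and 8.53, 17.2 and 6.98 CPM at day 21. All bleomycin mice but KO mouse 1 at day 21 lay below the naive mice of their genotype, and without that mouse the KO day 21 value was -3.25 (edgeR adjusted p = 0.000105). Epcam fell by 2.54 (SE 0.63) on the log2 scale in KO mice at day 7 and by 1.82 (SE 0.61, adjusted p = 0.0452) at day 14, and was not called at day 21 (-1.63, SE 0.61, adjusted p = 0.0598). The KO day 14 call was lost without any one mouse of that day (mouse 1: -1.45, adjusted p = 0.192) or naive mouse 2 or 3, and the day 21 value was called without naive mouse 1 (adjusted p = 0.0413). In WT mice it fell by 2.47 (SE 0.63), 3.01 (SE 0.64) and 3.54 (SE 0.66) at days 7, 14 and 21, with adjusted p between 0.000371 and 0.00419.

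The KO mice with the highest Epcam after bleomycin, mice 2 and 3 at day 14 and mouse 1 at day 21, were also those with the lowest sums of the 8 low genes on those days. Krt19, another keratin gene, averaged 252 CPM in bleomycin mice and 958.5 CPM in naive mice (log2 fold change -2.01, SE 0.34, edgeR adjusted p = 4.65e-05), and the tight junction gene Ocln 11.8 CPM in bleomycin mice and 29.6 CPM in naive mice (-1.4, SE 0.16, adjusted p = 5.25e-07).

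None of the 10 genes was called between KO and WT mice by edgeR's test. At the 4 times the count was 0 of 10 (0.546% of all tested genes were called in naive mice, 0.00792% at day 7, 0.135% at day 14 and 0.0950% at day 21). In the difference between the genotypes' responses it was 0 of 10 at each day (0.00792%, 0.332% and 0.332%), and averaged over the 4 times 0 of 10 (0.325%). At an unadjusted p under 0.05 there were 0, 4, 1 and 1 of the 10 genes in naive mice and at days 7, 14 and 21, and 2 in the average, where 1053, 580, 1269, 1236 and 1320 of the 12634 tested genes were under it. The 4 at day 7 were Sftpa1, Sftpb, Sftpc and Lyz1, and the 3 surfactant values rest on WT mouse 3. DESeq2 called 0 at each time and 1, Lyz1, in the average. The SEs of the log2 fold change were 0.84 to 1.36 for the 8 low genes at days 14 and 21, so a 2-fold difference between the genotypes was about 1 SE and not detectable in these groups.

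Lyz1 was the member nearest to a call. Its KO against WT log2 fold change was -0.24, -0.6, -0.75 and -0.19 in naive mice and at days 7, 14 and 21, and -0.44 (SE 0.11, edgeR adjusted p = 0.124) on average. For Lyz2 the same differences were -0.16, -0.33, -0.23 and -0.28, and -0.25 (SE 0.08, adjusted p = 0.263) on average. At day 14 the 3 KO mice had less Lyz1 (39.1, 29.4 and 22.4 CPM) than all 3 WT mice (53.9, 51.6 and 46.9 CPM), with a log2 fold change of -0.75 (SE 0.23, adjusted p = 0.211). In all, 8.41% of tested genes had their 3 KO mice below all WT mice at day 14. Without KO mouse 1 the day 14 value was -0.97 (adjusted p = 0.0443), and the average was called without that mouse (-0.5, adjusted p = 0.0465) or KO mouse 3 at day 21 (-0.51, adjusted p = 0.0442). In naive mice the 3 KO values of Sftpc and of Cldn18 lay below all 3 WT values, as in 7.79% of tested genes, on 0 to 13 counts a library. Of the other genes, Sftpc averaged -1.79 (SE 0.81, adjusted p = 0.452; -0.46 without WT mouse 3 at day 7) and Epcam at day 21 gave 1.63 (SE 0.62, adjusted p = 0.376). Sftpa1 at day 7 gave -5.28 (SE 1.63, adjusted p = 0.892), and -1.3 (adjusted p = 1) without WT mouse 3.

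Across mice the 8 low genes were correlated, less so without the 3 mice that stood apart. After group means were subtracted from log2(CPM + 1), Pearson's r over the 24 mice was 0.892 to 0.937 among the 6 pairs of surfactant genes, 0.855 to 0.953 among the 6 pairs of Ager, Cldn18, Krt8 and Krt18, and 0.553 to 0.86 between these sets. Without the 3 mice the ranges were 0.461 to 0.686, -0.095 to 0.681 and 0.132 to 0.613 over 21 mice. Points share their library and its depth, and no p is given. Epcam ran against all 8, at -0.641 to -0.321, and -0.786 to -0.046 without the 3 mice.

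**Figure D4:**
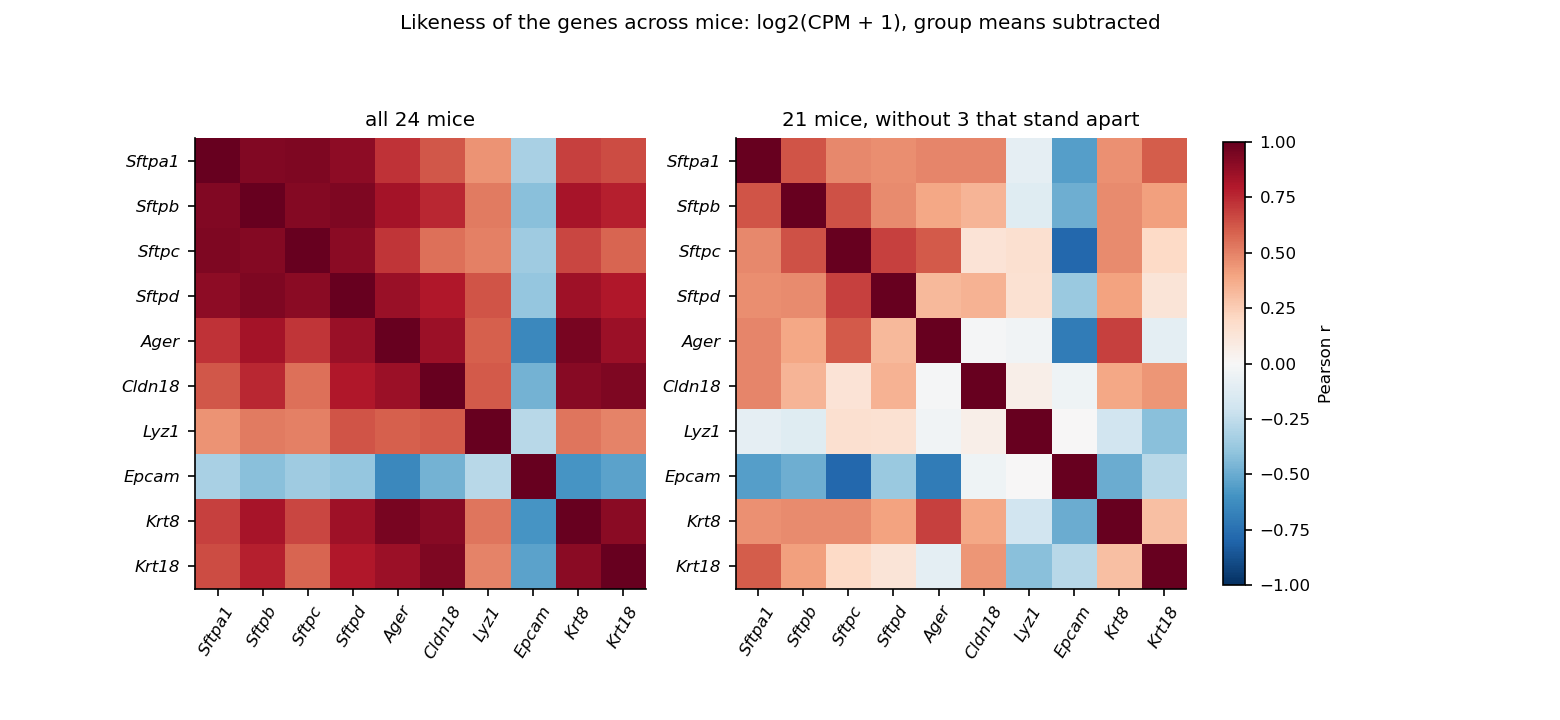
Pearson's r between each pair of the 10 genes over 24 mice (left) and over 21 mice without WT mouse 3 at day 7, KO mouse 1 at day 14 and KO mouse 3 at day 21 (right), after group means were subtracted from log2(CPM + 1). The r among surfactant genes drops from at least 0.892 to at most 0.686, and Epcam is negative with all 8 low genes in both panels.

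Ranked by r over all mice among all 12633 other tested genes, the most alike were often other members. The genes were not ranked again without the 3 mice that stood apart, and the second r given is for the same pair. Some orders changed without these mice. Sftpb was then closer to Sftpc (0.638) than to Sftpd (0.471), and Sftpa1 closer to Sftpb (0.625) than to Sftpc (0.484). Epcam kept the order of its genes named below. Sftpc was most like Cxcl15 (r 0.959, and 0.792 without the 3 mice), Sftpa1 most like Sftpc (0.937 and 0.484), and Sftpb and Sftpd most like each other (0.937 and 0.471). Ager was most like Sparc, a matrix-binding glycoprotein gene (0.971 and 0.807), and like Krt8 (0.953 and 0.681) and the ankyrin gene Ank3 (0.938 and 0.921). Cldn18 was most like Krt18 (0.934 and 0.44), then Clu and Cxadr, and Krt18 was most like Col12a1 (0.95 and 0.592). Ank3, Cxadr and Col12a1 averaged 0.117, 0.326 and 0.171 CPM in bleomycin mice and at most 0.0049 CPM in naive mice, so their r rests on few counts. Krt8 was most like Sparc (0.958 and 0.745). Epcam was most like Gpr155 (0.948 and 0.929), Coro6 (0.941 and 0.921) and the claudin gene Cldn1 (0.915 and 0.881), and Lyz1 most like Zdhhc2 (0.796 and 0.648).

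Wider lists of epithelial genes hold both genes well above 0 and genes near 0 in naive mice. Of those tested, 7 of 14 AT2, 6 of 11 AT1, 4 of 9 airway and 5 of 10 general and transitional genes averaged under the filter's 0.286 CPM in naive mice. Such genes could pass the filter only through bleomycin mice, so the counts are a description, to be read beside the 25.9% of all tested genes that were higher and 22.9% lower. Of 16 AT2 genes outside the members, 14 were tested, and 12 were higher and 1 lower in bleomycin mice on average, with a median log2 fold change of 3.58. Of 11 tested AT1 genes 7 were higher and 1 lower (median 3.08), of 10 general and transitional epithelial genes 6 were higher and 4 lower (median 2.29), and of 9 airway genes 1 was higher and 1 lower (median 0.09), where the median over all genes was 0. AT2 genes at or above 5 CPM in naive mice were Abca3, Ctsh, Cebpa and Napsa. The lipid enzyme gene Lpcat1 averaged 24.0 CPM in bleomycin mice and 2.51 CPM in naive mice (log2 fold change 3.23, SE 0.27), the protease gene Ctsh 707 and 413 CPM (0.77, SE 0.07), Abca3 141 and 114 CPM (0.3, SE 0.05), and Lgi3, near 0 in naive mice, 0.811 and 0.024 CPM (5.88, SE 0.85). Pgc had 0 counts in all mice.

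**Figure D5:**
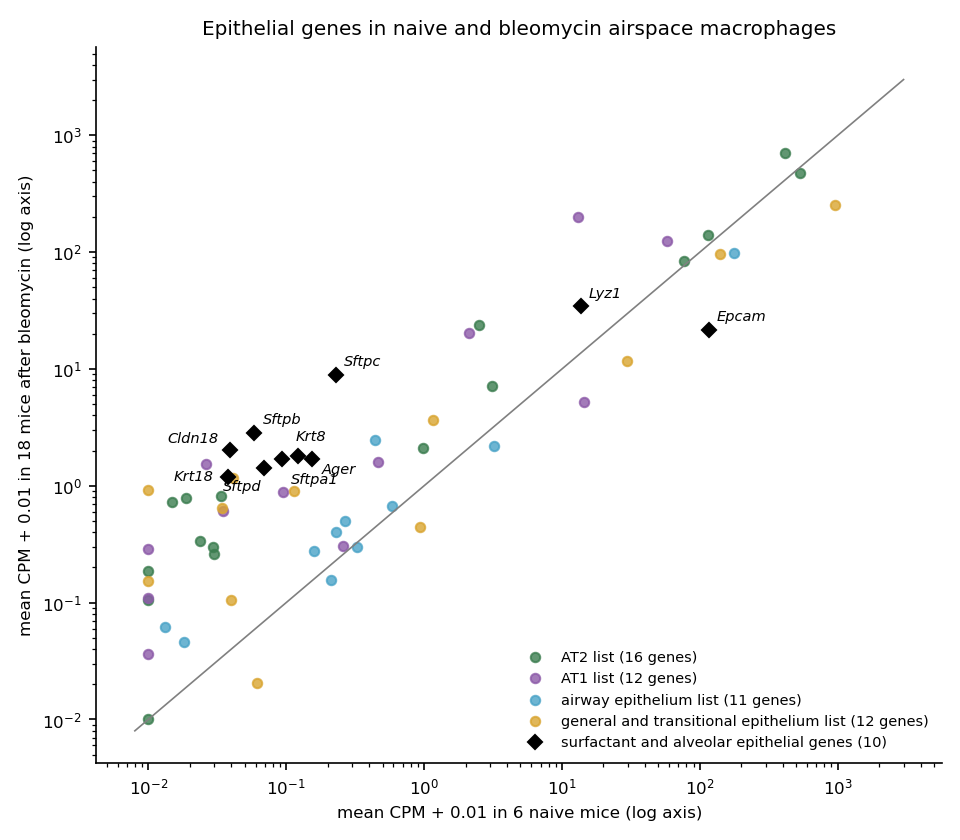
Mean CPM plus 0.01 in 18 bleomycin mice (y axis) against 6 naive mice (x axis), on log axes, for the 10 genes (diamonds) and 4 lists of epithelial genes (circles), with a line of equal level. The 8 low genes lie far above the line at under 0.3 CPM in naive mice, Lyz1 lies above it at 13.6 CPM and Epcam below it at 116 CPM.

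Among AT1 genes the podoplanin gene Pdpn averaged 200.5 CPM in bleomycin mice and 13.1 CPM in naive mice (log2 fold change 3.9, SE 0.27), Hopx 20.5 and 2.11 CPM (3.08, SE 0.29), and the caveolin gene Cav1 125 and 58.0 CPM (1.01, SE 0.11), all called higher. At day 7 Pdpn was at 173 to 350 CPM, Hopx at 27.4 to 44.0 CPM and the AT2 list gene Lpcat1 at 19.1 to 27.8 CPM. On that day Ager was at most 0.691 CPM and Aqp5 at most 0.47 CPM, so the listed genes did not share 1 time course. Which cells their RNA came from was not tested. Akap5, at 5.17 CPM in bleomycin mice and 14.4 CPM in naive mice, fell by 1.51 (SE 0.19). Col4a3, 1 of the 11 AT1 genes, had no usable estimate because groups were at 0 counts. Of the general and transitional genes Krt7 averaged 1.15 CPM in bleomycin mice and 0.0309 CPM in naive mice (5.97, SE 0.93), and Cldn4 averaged 0.914 CPM in bleomycin mice and had 0 counts in naive mice. Of the airway genes Scgb1a1 was higher (log2 fold change 1.96, SE 0.66, adjusted p = 0.0184), at 2.46 CPM in bleomycin mice and 0.432 CPM in naive mice. Without WT mouse 3 at day 7 Scgb1a1 averaged 1.31 CPM in bleomycin mice, with a log2 fold change of 1.49 (adjusted p = 0.0237). Tppp3, at 97.7 CPM in bleomycin mice and 178 CPM in naive mice, was lower. In KO against WT on average, 1 of 14 tested AT2 genes, Napsa, was called, where 0.325% of all tested genes were called. It was higher in KO mice by 0.81 (SE 0.1, edgeR adjusted p = 8.35e-05), and was at or above 5 CPM in naive mice. The cause of this difference was not tested.

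Some markers of other cells were also higher in bleomycin mice. Of the tested ones, 3 of 3 T cell, 2 of 3 red cell, 2 of 4 neutrophil, 2 of 3 endothelial, 2 of 2 fibroblast and 2 of 2 B cell genes averaged under 0.286 CPM in naive mice, so the same limit holds. Among all tested genes 25.9% were higher and 22.9% lower. Cdh5 (endothelial), Col1a1 (fibroblast) and Hbb-bs (red cell) had no usable estimate and count below as tested and not called. The 3 T cell genes tested were all higher in bleomycin mice, and their summed level was 2.15 to 23.5 CPM in KO mice and 4.53 to 12 CPM in WT mice after bleomycin, against at most 0.276 CPM in naive mice. Cd3e averaged 3.97 CPM in bleomycin mice and 0.00769 CPM in naive mice. Of 3 red cell genes 2 were higher, 1 of them Hba-a1 (53.3 CPM in bleomycin mice and 2.62 CPM in naive mice), and of 4 neutrophil genes 2 were higher and 1 lower. Of the genes tested, 1 of 3 endothelial, 1 of 2 fibroblast and 1 of 2 B cell genes were higher and 0 lower. The endothelial gene Vwf averaged 102 CPM in bleomycin mice and 110 CPM in naive mice. It was not called between them (log2 fold change -0.14, SE 0.12, edgeR adjusted p = 0.339). The 5 fibroblast genes summed to at most 3.37 CPM in any mouse, and the endothelial gene Cldn5 had 0 counts in all mice. In KO mouse 1 at day 14 and KO mouse 3 at day 21 the T cell genes summed to 6.46 and 6.54 CPM and in KO mouse 2 at day 21 to 23.5 CPM, and in WT mouse 3 at day 7 to 11.7 CPM. The part of such cells in the results was not tested.

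Macrophages clear surfactant under GM-CSF and PPARG, and 23 genes of uptake and clearance were set beside the members. On average over bleomycin mice 6 of 23 were higher and 5 lower (25.9% and 22.9% of all tested genes), with a median log2 fold change of 0.06. The scavenger receptor gene Msr1 rose to 305 CPM in bleomycin mice, against 15.85 CPM in naive mice (log2 fold change 4.24, SE 0.28), and the sterol carrier gene Npc2 rose by 0.6 (SE 0.07). The fatty acid receptor gene Cd36 fell to 168 CPM in bleomycin mice, against 629 CPM in naive mice (-1.93, SE 0.18), and Abcg1, which exports cholesterol, fell by 0.98 (SE 0.11). None of the 23 was called between KO and WT mice at any of the 4 times or on average. In the difference between the genotypes' responses 1 of the 23, the repressor gene Bhlhe41, was lower at days 14 and 21. Of all tested genes 0.332% were called on each of these days. That all-gene count, 42 on each day, ran from 6 to 216 at day 14 and from 0 to 83 at day 21 with 1 mouse left out.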

How the data were processed

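RNA of airspace macrophages from 24 mice was sequenced in reads of 150 bases, with 2 runs a mouse in the labels and 1 table column a mouse. The table holds expected counts per gene, deposited by the authors, of which 3.11 to 3.85% of values per mouse were not whole. They were rounded to whole counts here. The submitters' processing notes name mm10, bcl2fastq, DESeq2 1.42.0 and limma 3.58.1. The aligner, the counting tool and its use of strand are not given in the sources read. The table's 24 other columns were not used.

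Counts were analysed in R 4.3.3 with edgeR 4.0.16: filterByExpr (minimum count 10, minimum total 15), TMM scaling, and the quasi-likelihood test over 8 group means in 1 fit, with Benjamini-Hochberg adjustment over 12634 genes in each of 15 comparisons. The SE is the log2 fold change divided by the square root of its F. The script was tested on simulated data with known changes. Likeness is Pearson's r of log2(CPM + 1). The members and lists were chosen with earlier results of these data known. All members are named. From each other list the text names up to 4 genes of smallest p in bleomycin against naive and up to 2 in KO against WT. For other cell types it names up to 2 of highest mean CPM. Added after their values were seen were Nkx2-1, Pgc, Col4a3, Cldn5, Cebpa, Vwf, Cdh5, Col1a1, Hbb-bs, Muc5b, Esrp1 and the 1 clearance gene called in the response difference. Alternatives were RLE scaling, no filter, the replicate number as a block, the compared groups alone, DESeq2 and each mouse left out, and, chosen after seeing the data, 3 mice left out together and Cldn18 bounds and Scgb1a1 without the mouse that stood apart. Same-numbered mice of different groups did not deviate together (18 of 84 pairs had r over 0.1, against 32 of 168 pairs with different numbers), so numbers were not taken as pairs. Intervals are 95% exact. Reads carry no molecular identifiers, so intervals and floors cover counting error only, and p-values measure the spread between these mice.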

Additional observations from a re-analysis of the deposited data

How the results depend on the processing

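Counts of the 10 genes called were the same with RLE scaling and with no filter. With the replicate block they were 4, 8 and 7 in KO mice and 5, 6 and 10 in WT mice at days 7, 14 and 21, 10 in the bleomycin average and 0 in every KO against WT comparison; the block ended the calls of Krt18 (WT day 7), Ager (day 14, both genotypes) and Epcam (KO day 14), and Sftpa1 in KO mice at day 14 was called (4.92). With the compared groups alone the counts were 4, 7 and 6 in KO mice and 3 (in place of 6), 10 and 10 in WT mice; this ended the calls of Sftpc (WT day 7, adjusted p = 0.0535), Krt8 (KO day 14, 0.0514) and Ager (KO day 21, 0.0511) in edgeR, and Sftpa1 and Krt18 (WT day 7) and Cldn18 (KO day 14) no longer passed the filter. DESeq2 called 5, 10 and 9 genes in KO mice and 7, 9 and 10 in WT mice. In KO against WT averaged over the 4 times, DESeq2 called 1 gene and leaving out 3 mice together 1 gene, Lyz1, in place of 0. Without those 3 mice the bleomycin average called 8 of 10, Ager having an adjusted p of 0.0657 in edgeR and Sftpd no usable estimate, since a group was then at 0 counts.

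Leaving out each mouse in turn gave 1 to 4 genes (4 with all mice), 3 to 9 (9) and 3 to 10 (7) in KO mice and 2 to 7 (6), 4 to 6 (7) and 6 to 10 (10) in WT mice at days 7, 14 and 21. It gave 0 to 1 (0) for KO against WT at day 14 and on average, and 8 to 10 (10) for the bleomycin average. Day 7 values changed sign in this way: over naive, Sftpa1 in KO mice ran from -1.36 to 0.72, Ager in KO mice from -0.45 to 0.75, Sftpd in WT mice from -4.12 to 5.17 and Ager in WT mice from -2.87 to 1.99, and KO against WT Sftpc from -5.91 to 0.02. The cause was not tested, but the WT and KO against WT values changed sign only without WT mouse 3. The WT mice then left at day 7, mice 1 and 2, held 0 and 0 counts of Sftpd and 0 and 1 counts of Ager. The values of -4.12 and -2.87 thus rest on groups at or near 0 counts and do not measure a fall. Of the 71 fold changes not printed, none of them called, 47 changed sign under at least 1 alternative. With 3 mice a group and 24 to 36 counts of the 8 low genes in a naive library, folds over naive mice are imprecise.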

Other observations

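Napsa, the gene of an aspartic protease that processes surfactant protein precursors in AT2 cells, averaged 83.3 CPM in bleomycin mice and 76.1 CPM in naive mice and was not called between them (log2 fold change 0.13, SE 0.11, edgeR adjusted p = 0.361). Ribosomal precursor RNA, read as Rn45s, took 0.743 to 8.19% of a library's counts. B cell genes summed to at most 4.06 CPM in any mouse, and Cd79a, part of the B cell receptor, averaged 0.528 CPM in bleomycin mice and had 0 counts in naive mice. The red cell genes summed to 1.11 to 40.9, 2.42 to 88.8 and 14.2 to 47.4 CPM in KO mice at days 7, 14 and 21, against at most 0.0231 CPM in naive KO mice. In WT mice they summed to 11.2 to 114, 5.66 to 33.0 and 82 to 321 CPM, against at most 15.8 CPM in naive WT mice. The neutrophil gene S100a8 averaged 39.6 CPM in bleomycin mice and 5.37 CPM in naive mice (log2 fold change 2.76, SE 0.34, edgeR adjusted p = 1.25e-06). Of the 4 neutrophil genes 2 were higher and 1, Csf3r, was lower. Csf3r averaged 26.8 CPM in bleomycin mice and 45.0 CPM in naive mice (-0.76, SE 0.15, edgeR adjusted p = 0.000341).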
